A study of Mus musculus with 8 samples.

Results

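Maternal and oocyte transcripts are messages that the growing oocyte makes and stores, and 46 mouse symbols of this kind were listed. A gene was kept when its Ensembl identifier mapped to a listed symbol and its abundance was above 0 in at least 2 of 8 libraries. That rule kept 43 of the 19058 genes in the deposited table. Zar1l, at 3.66 in its single library above 0, and Oog1, at 9.95, were left out, and 1 listed name, H1foo_none, matched no gene symbol. Just inside the rule stood Nobox, above 0 in 2 libraries, and Btg4, above 0 in 3.

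The libraries were made from polyadenylated RNA of late mouse morulae collected 78 h after fertilization. As zygotes these embryos had received small interfering RNA (siRNA) against Rbbp4 (the Rbbp4 knockdown), Rbbp7 (the Rbbp7 knockdown) or both (the double knockdown), or a non-specific siRNA (the control). Each of these 4 groups has 2 libraries, and every embryo was injected, so no group shows uninjected embryos. Rbbp4 and Rbbp7 are histone-binding proteins found together in several chromatin complexes. Whether a group's libraries came from separate pools of embryos is not stated in the labels, and p-values here reflect no more than the spread among libraries.

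An oocyte stops transcription when fully grown and relies on stored messages until the embryo's own genome is switched on, in the mouse mainly at the 2-cell stage. Most stored messages lose their poly(A) tails and are degraded during meiotic maturation and after fertilization, in part through the CCR4-NOT deadenylase and its adaptor Btg4. Some genes of oocytes are also transcribed again by the embryo, so a message found in a morula can be left over, newly made or both. Abundance alone cannot tell these apart, and in RNA of whole embryos fewer cells expressing a gene and less RNA per cell cannot be told apart either. Messages that have lost their poly(A) tails can be missed in polyadenylated RNA, so a low value does not show that a message is gone.

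The targeted genes matched the labels. Rbbp4 stood at 343 to 433 in the 4 libraries given its siRNA and at 4369.7 to 5300.1 in the others. Rbbp7 stood at 266 to 327 in its 4 targeted libraries and at 6295 to 8399 in the others. Library totals of the deposited abundance ran from 11334107 to 12011829. Control 1 stood apart in part, with the most genes listed at 0, 3937 against 2644 in the library with fewest, and the highest mitochondrial share, 6.21% against a lowest of 4.26%. All 20 morula and blastocyst markers on a fixed list were above 0 in every library, among them the pluripotency factor Pou5f1 at 13210.4 to 17835 and the trophectoderm factor Cdx2 at 1195 to 2869.

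The promoters of 4 genes are printed because the results turn on them, namely the zona gene Zp3, the abundant Khdc3, its less abundant relative Ooep, and Uchl1, the 1 gene called in a knockdown. Each is 250 bases before to 50 bases after a start site from RefSeq on GRCm38.p6, printed 5′ to 3′ on the gene's strand, with E-boxes (CANNTG, the site bound by the oocyte factor Figla with its partners) in capitals. The windows are chr5:135979855-135980154 on the plus strand for Zp3, chr9:73102148-73102447 on the plus strand for Khdc3, chr9:78378539-78378838 on the minus strand for Ooep and chr5:66675871-66676170 on the plus strand for Uchl1.
Zp3: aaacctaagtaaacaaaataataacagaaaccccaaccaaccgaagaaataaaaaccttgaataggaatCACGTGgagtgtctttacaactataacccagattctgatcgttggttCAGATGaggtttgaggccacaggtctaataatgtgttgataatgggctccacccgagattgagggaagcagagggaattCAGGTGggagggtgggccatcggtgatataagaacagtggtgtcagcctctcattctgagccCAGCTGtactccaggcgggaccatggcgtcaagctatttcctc
Khdc3: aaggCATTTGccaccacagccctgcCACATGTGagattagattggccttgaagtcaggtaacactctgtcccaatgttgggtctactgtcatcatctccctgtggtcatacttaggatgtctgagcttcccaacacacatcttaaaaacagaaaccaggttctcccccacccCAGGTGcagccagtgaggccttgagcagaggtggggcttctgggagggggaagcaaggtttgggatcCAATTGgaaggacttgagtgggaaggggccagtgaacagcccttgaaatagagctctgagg
Ooep: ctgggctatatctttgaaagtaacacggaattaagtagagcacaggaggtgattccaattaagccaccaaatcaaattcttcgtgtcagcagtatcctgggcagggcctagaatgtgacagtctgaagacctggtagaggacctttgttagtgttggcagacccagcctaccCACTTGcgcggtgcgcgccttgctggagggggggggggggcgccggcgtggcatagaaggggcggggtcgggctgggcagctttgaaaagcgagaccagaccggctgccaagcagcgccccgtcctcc
Uchl1: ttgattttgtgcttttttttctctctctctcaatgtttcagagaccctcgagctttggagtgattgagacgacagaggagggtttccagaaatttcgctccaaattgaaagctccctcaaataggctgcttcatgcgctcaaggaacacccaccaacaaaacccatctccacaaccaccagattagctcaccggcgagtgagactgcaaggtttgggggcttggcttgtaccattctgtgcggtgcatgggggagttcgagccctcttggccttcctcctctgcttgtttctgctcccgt
Zp3 held 4 E-boxes and Khdc3 5, of which some overlap, against 1 in Ooep and 0 in Uchl1. Khdc3 held 0 CpG dinucleotides, against 7 in Zp3, 9 in Uchl1 and 15 in Ooep. RefSeq windows were found for 35 of the 43 genes, 48 windows in all because some genes have several starts. An E-box, which reads the same on both strands, was in 40 of the 48 windows (83.3%), against 72.3% of all 32851 promoter windows of that length. The median CpG count was 4 in these windows and 7 in all. A match is a description of letters, not evidence of binding.

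Most of the oocyte genes had low values at 78 h, as did many other genes of the table. By mean abundance over the 8 libraries, 1 gene lay below 1, 18 lay from 1 to 10, 16 from 10 to 100, 4 from 100 to 1000 and 4 above 1000. Levels were compared between genes after division by exon length and scaling of every library to the same total, called here length-scaled abundance. On that scale 17 genes were below 1, 18 between 1 and 10, 6 between 10 and 100, and 2, Khdc3 and Dppa5a, above 100. The median gene, Npm2, was at 1.34, above 37.7% of all genes. The 6 between 10 and 100 were, in rising order, Ooep, Padi6 at 16.7, Ybx2 at 29.5, Cnot7 at 44.9, Uchl1 at 58.7 and Rnf114 at 83.2. In each library 34 to 40 of the 43 genes were above 0, and 27 were above 0 in all 8. The 24 genes with a mean abundance of at least 10 entered the tests of the knockdowns, and the other 19 fell below that filter.

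**Figure D1:**
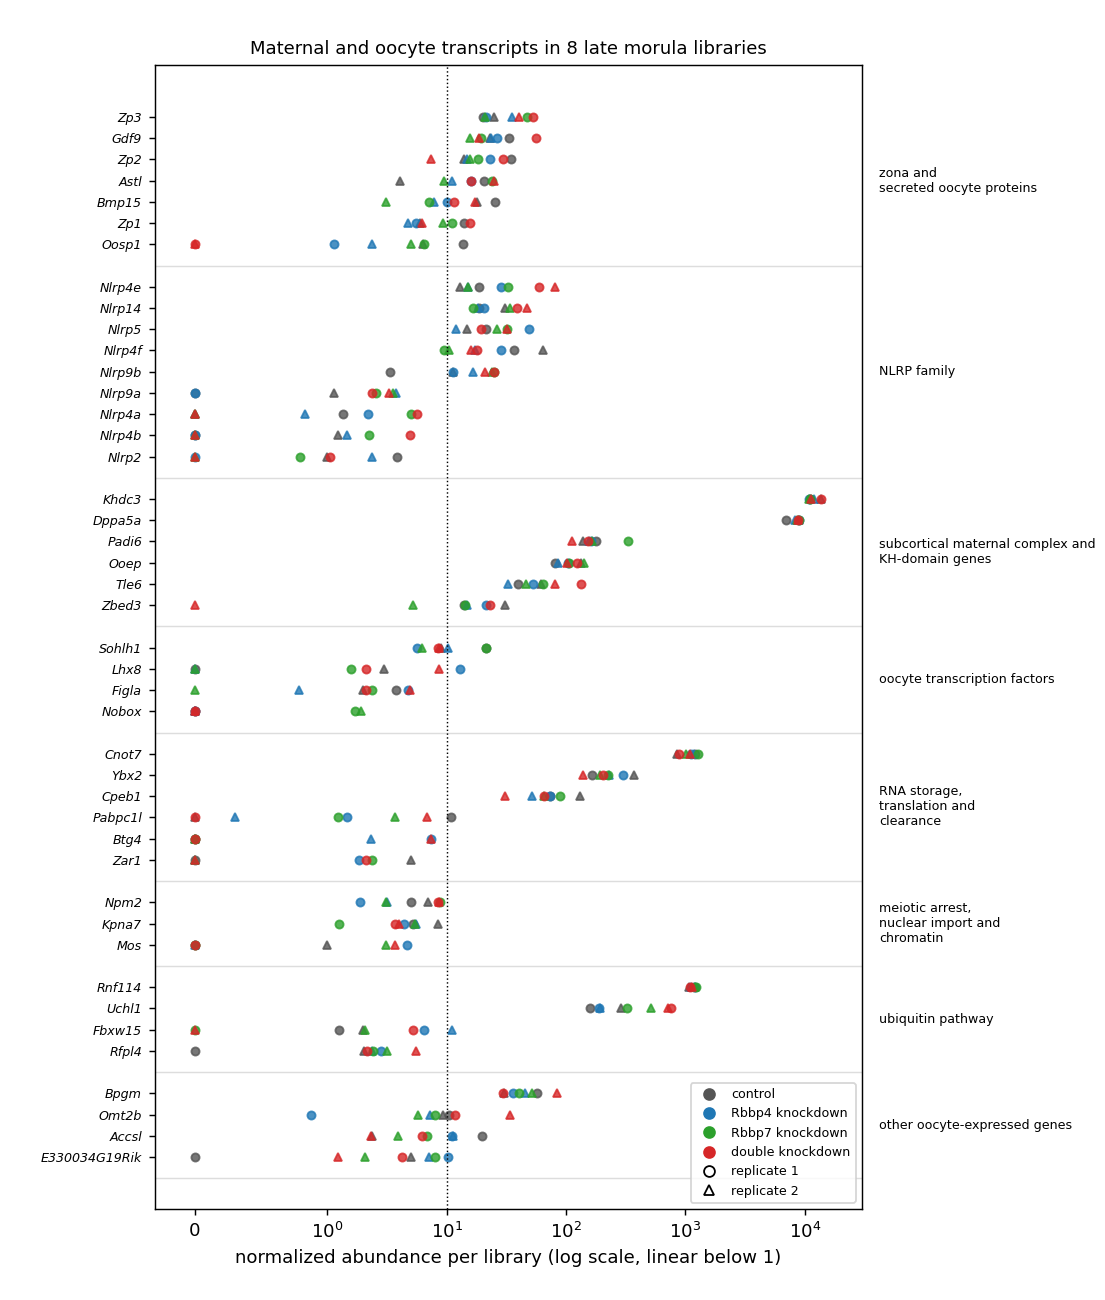
Normalized abundance of the 43 maternal and oocyte genes in each of the 8 libraries, on a logarithmic axis that is linear below 1, grouped by role. Circles are replicate 1 and triangles replicate 2, colours are the siRNA groups, and the dotted line is an abundance of 10; Khdc3 and Dppa5a lie near 10000 in all libraries while most zona, NLRP and transcription factor genes lie near or below the line.

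The zona pellucida is the coat of the egg, built from Zp1, Zp2 and Zp3. Zp3, the sperm-binding coat protein, was at 20.3 and 25.1 in control libraries, 21.5 and 35.3 after Rbbp4 knockdown, 46.8 and 20.8 after Rbbp7 knockdown, and 52.6 and 40.7 after double knockdown. Both double-knockdown libraries were above both controls, but Rbbp7 knockdown 1 lay between them. Zp2, which anchors sperm and is cut after fertilization, ranged from 7.43 in double knockdown 2 to 34.3 in control 1, and Zp1, which cross-links the coat, from 4.71 to 15.8. Astl, the protease ovastacin that cuts Zp2, ranged from 4.08 in control 2 to 24.7 in double knockdown 2. In length-scaled abundance Zp3 was highest of these at 6.05, above 54.7% of all genes, and Zp1, Zp2 and Astl were at 1.11, 1.75 and 1.50.

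Gdf9 and Bmp15 are growth factors that the oocyte secretes to the surrounding follicle cells. Gdf9 was at 33.3 and 23.1 in control libraries, 26.6 and 23.7 after Rbbp4 knockdown, 19.6 and 15.6 after Rbbp7 knockdown, and 56.4 and 18.7 after double knockdown. The double-knockdown libraries thus held both the highest Gdf9 value and one of the lowest. Bmp15 was at 25.5 and 18.0 in control libraries, 10.1 and 7.86 after Rbbp4 knockdown, 7.13 and 3.13 after Rbbp7 knockdown, and 11.6 and 17.4 after double knockdown. Both controls stood above all 6 knockdown libraries, and every value was low. Oosp1, an oocyte-secreted protein, was at 13.6 and 6.28 in control libraries, at 1.13 to 6.44 in the single knockdowns and listed at 0 in both double-knockdown libraries. Its mean was below the filter and it was not tested.

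The NLRP genes encode NACHT and leucine-rich repeat proteins, several of which are restricted to oocytes and early embryos. Nlrp5, known as Mater and a scaffold of the subcortical maternal complex that embryos need to pass the 2-cell stage, ranged from 12.1 to 49.3, with both extremes after Rbbp4 knockdown. Nlrp14 ranged from 16.6 to 47.4, and the 2 highest values were after double knockdown. Nlrp2, Nlrp4a, Nlrp4b and Nlrp9a reached at most 5.60 in any library, and each was listed at 0 in 2 to 4 of the 8.

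Nlrp4e (ENSMUSG00000045693, chr7:23301192-23362277) was at 18.5 and 13.0 in control libraries, 28.3 and 15.2 after Rbbp4 knockdown, 32.7 and 15.2 after Rbbp7 knockdown, and 58.8 and 81.3 after double knockdown. Both double-knockdown libraries were above all the others. Nlrp4f (ENSMUSG00000032999, chr13:65177111-65205977) was at 36.9 and 64.2 in control libraries, 28.6 and 17.3 after Rbbp4 knockdown, 9.50 and 10.4 after Rbbp7 knockdown, and 17.9 and 16.1 after double knockdown. Here both controls were above all 6 knockdown libraries. Nlrp9b was at 3.34 and 11.4 in control libraries, 11.3 and 16.5 after Rbbp4 knockdown, 25.2 and 24.1 after Rbbp7 knockdown, and 24.8 and 20.97 after double knockdown. So within 1 family the double knockdown had the highest values of Nlrp4e and low values of Nlrp4f. Near-identical copies make these values uncertain, because 20.2% of the 75-base windows of Nlrp4e, 2.42% of Nlrp4f and 3.09% of Nlrp9b also occur in other genes, for Nlrp4e in Nlrp4c and 5 predicted genes.

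Khdc3 and Dppa5a, of the subcortical maternal complex and its KH-domain relatives, were the highest of all 43 genes, and all 6 genes of that class passed the filter. Khdc3 (Filia, ENSMUSG00000092622, chr9:73101836-73104438), a KH-domain protein of the complex that guards chromosome number in early divisions, was at 11056 and 13615 in control libraries and 10819.8 and 11808 after Rbbp4 knockdown. It was at 10967 and 10756 after Rbbp7 knockdown and at 13607 and 11255 after double knockdown. Every knockdown group overlapped the control except the Rbbp7 knockdown, whose 2 values lay just under it. Its length-scaled abundance was 1391, above 99.5% of genes. Of its 75-base windows 40.4% also belong to Gm20509, an overlapping gene on the same strand whose own abundance was 40.6 to 119, so the split of reads between the 2 is uncertain.

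Ooep (Floped), a further KH-domain member of the complex on the same chromosome, was far lower, with a length-scaled abundance of 12.4. Ooep (ENSMUSG00000032346, chr9:78376109-78378725) was at 80.1 and 132 in control libraries, 104 and 86.4 after Rbbp4 knockdown, 106 and 141 after Rbbp7 knockdown, and 122 and 102 after double knockdown. Every knockdown group overlapped the control. Dppa5a (ENSMUSG00000060461, chr9:78367052-78368177), a KH-domain RNA-binding protein also made by pluripotent cells, lies 7931 bases from Ooep and was at 6989.9 and 8975 in control libraries. It was at 8862 and 8199.9 after Rbbp4 knockdown, 9003 and 8590.2 after Rbbp7 knockdown, and 8832 and 8819 after double knockdown. Its length-scaled abundance, 3355, was above 99.8% of genes and in the 8 libraries 211 to 328 times that of Ooep. Of its 75-base windows 19.4% occur in other genes.

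The remaining complex members had middling or low values. Padi6, an arginine deiminase-like protein needed for the oocyte's cytoplasmic lattices, was at 113 to 179 in 7 libraries and at 329.5 in Rbbp7 knockdown 1. Tle6, a groucho-like member of the complex, was at 39.9 and 61.8 in control libraries, 52.7 and 32.7 after Rbbp4 knockdown, 63.8 and 45.9 after Rbbp7 knockdown, and 132 and 80.0 after double knockdown. The double-knockdown values of Tle6 were above all 6 others. Zbed3, a further complex member, ranged from 0 to 31.1, with both the 0 and 23.2 after double knockdown.

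Transcription factors of the oocyte programme were close to 0. Figla, which drives the zona genes, ranged from 0 to 4.90, and Nobox, which drives many oocyte genes, was listed at 0 in 6 libraries and at 1.72 and 1.93 after Rbbp7 knockdown. Lhx8, a homeodomain factor of early oocytes, was listed at 0 in 3 libraries and reached 12.9 in Rbbp4 knockdown 1. Sohlh1, a bHLH factor of the primordial follicle, ranged from 5.61 to 21.5 and was the one tested.

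Genes that store, translate or clear oocyte messages were split between high and near 0. Cnot7, a catalytic deadenylase of CCR4-NOT that is used in all cells, ranged from 851 in control 2 to 1275 in Rbbp7 knockdown 1. Ybx2 (Msy2), which coats stored messages in germ cells, was at 164 and 367 in control libraries, 302 and 230.5 after Rbbp4 knockdown, 225 and 191 after Rbbp7 knockdown, and 203 and 139 after double knockdown. Cpeb1, which controls poly(A) tail length during maturation, ranged from 30.7 in double knockdown 2 to 130.2 in control 2. For both Ybx2 and Cpeb1 control 2 was the highest library and double knockdown 2 the lowest. By contrast Btg4 was listed at 0 in 5 libraries and reached 7.43, Zar1, which binds maternal messages, reached 4.99 with 22.8% of its 75-base windows shared with other genes, and Pabpc1l, the poly(A)-binding protein of oocytes, reached 10.8.

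Mos, the kinase that holds eggs in meiotic arrest, reached at most 4.65. Npm2, which remodels sperm chromatin, reached 8.74, and Kpna7, an importin of eggs, 8.53. None of these 3 passed the filter. Among ubiquitin genes Fbxw15, an F-box protein, ranged from 0 to 10.99 and Rfpl4, a RING-finger protein, from 0 to 5.59. Rnf114, a broadly expressed ubiquitin ligase, had values of 1078 to 1214 and the smallest spread of the 24 tested genes, with a coefficient of variation of 4.67% over the 8 libraries.

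Uchl1 (ENSMUSG00000029223, chr5:66676091-66687234), a deubiquitinase abundant in oocytes and neurons, was at 159 and 290.0 in control libraries and at 188 and 192 after Rbbp4 knockdown. It was at 325 and 518 after Rbbp7 knockdown and at 753 and 718 after double knockdown. The 2 double-knockdown libraries stood above all others, and those of the Rbbp7 knockdown stood above both controls. Part of the gene, 295 bases, overlaps the antisense gene Uchl1os. Whether counting used strand is not given in the sources used here, so reads of the 2 cannot be told apart over that stretch.

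Of the remaining genes, Bpgm, an enzyme of 2,3-bisphosphoglycerate metabolism, ranged from 29.7 to 83.5, both after double knockdown. Omt2b ranged from 0.875 in Rbbp4 knockdown 1 to 33.6 in double knockdown 2, and 7.22% of its 75-base windows occur in other genes. Accsl ranged from 2.34 to 19.8 and E330034G19Rik from 0 to 10.3.

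The summed abundance of the 43 genes asks whether any library held more of these messages as a whole. It was 1793 and 2219 ppm of the library total in control libraries, 2036 and 1991.5 after Rbbp4 knockdown, 2031 and 1937 after Rbbp7 knockdown, and 2257 and 2116 after double knockdown. Every knockdown group overlapped the control, whose 2 libraries were nearly as far apart as any, while both double-knockdown sums lay above those of the 4 single-knockdown libraries. Khdc3 made up 45.7% to 52.4% of the sum and Dppa5a 32.5% to 38.1%, so the sum mainly reports these 2 genes. Without the 5 highest genes it was 79.2 and 101 in control libraries, 94.0 and 73.9 after Rbbp4 knockdown, 101 and 75.6 after Rbbp7 knockdown, and 97.9 and 84.7 after double knockdown, here with overlap of every pair of groups. A fixed list of 47 further oocyte-enriched genes summed to 1399 and 1447 ppm in control libraries and 1311 and 1246 after Rbbp4 knockdown. Its sums were 1343 and 1328 after Rbbp7 knockdown, and 1258 and 1312 after double knockdown. For that list both controls were above all knockdown libraries. Its most abundant gene was Dppa3, at 7523 to 10548 in normalized abundance.

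**Figure D2:**
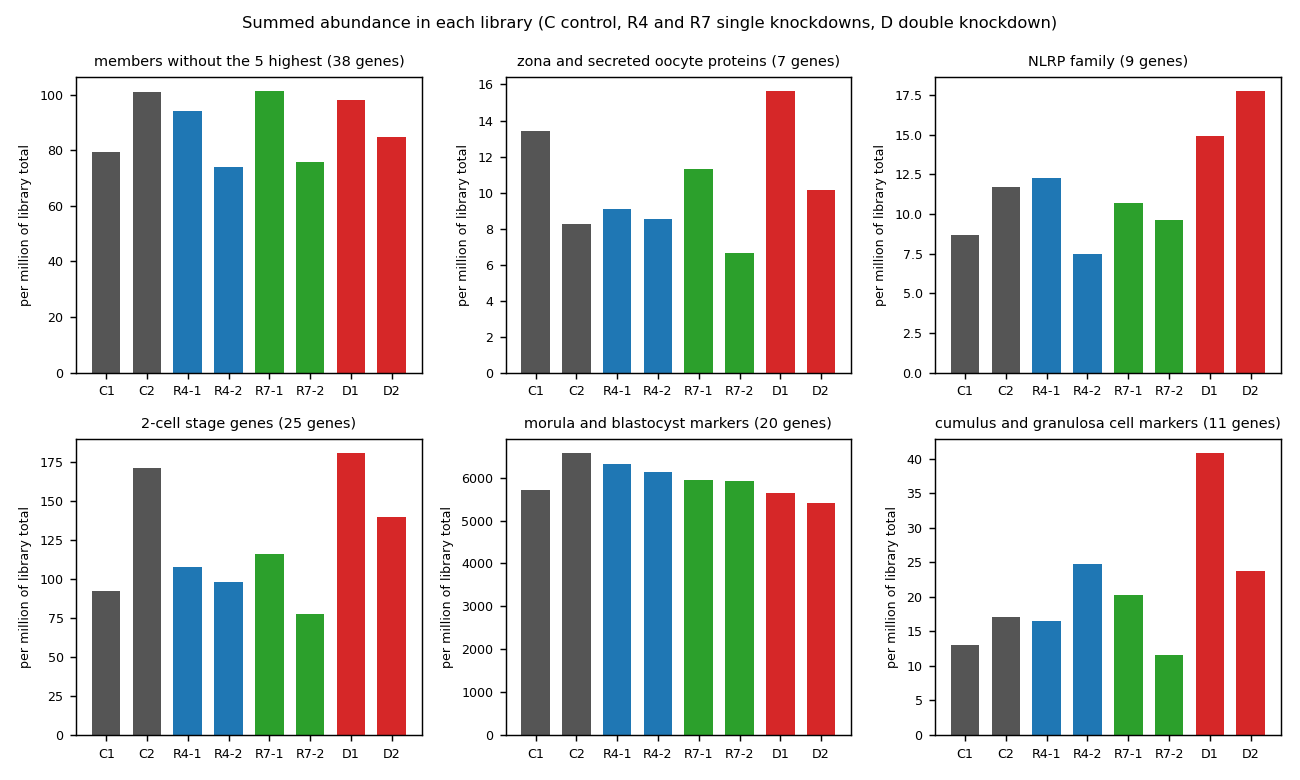
Summed abundance of gene groups in each library, as ppm of the library total, for the maternal and oocyte genes without the 5 highest, for the zona and NLRP subsets, and for fixed lists of other stages and cell types. Each bar is 1 library, C1 and C2 the control, R4 and R7 the single knockdowns and D the double knockdown; sums without the 5 highest genes span 73.9 to 101, while the NLRP bars are highest at 14.9 and 17.7 after double knockdown.

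The zona and NLRP subsets were less even. The zona and secreted genes summed to 13.4 and 8.25 ppm in control libraries, 9.11 and 8.53 after Rbbp4 knockdown, 11.3 and 6.67 after Rbbp7 knockdown, and 15.6 and 10.2 after double knockdown. Every pair of groups overlapped except the double and the Rbbp4 knockdown, where both double-knockdown sums were the higher. The 9 NLRP genes summed to 8.65 and 11.7 in control libraries, 12.3 and 7.49 after Rbbp4 knockdown, 10.7 and 9.62 after Rbbp7 knockdown, and 14.9 and 17.7 after double knockdown, whose libraries were the 2 highest. Without Nlrp4e the double-knockdown NLRP sums were 9.86 and 10.6, inside the control range of 7.11 to 10.6. They were still above those of all single-knockdown libraries, which reached 9.82 at most. The sums cover only these listed genes. Nlrp4c, an NLRP gene outside the 9, was more abundant than any of them and was not highest after double knockdown. Its normalized abundance was 717 and 802 in control libraries and 790 and 548 after Rbbp4 knockdown. It was 334 and 559 after Rbbp7 knockdown, and 207 and 585 after double knockdown.

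No library was the highest across the genes. Of the 24 tested genes, 5 were highest in control 2, 5 in Rbbp7 knockdown 1, 5 in double knockdown 2, 4 in double knockdown 1 and 3 in control 1, and the other 3 libraries held 2 between them. Of all tested genes 12.4%, 12.3%, 15.3%, 16.0% and 16.1% were highest in those named libraries, in that order. Among the 16 genes with means of 10 to 100, 5 were highest in double knockdown 2. Control 1, control 2 and double knockdown 1 held 3 each, and every other library at most 1. The median deviation of a library from each gene's mean over libraries lay between −0.15 and 0.18 on the log2 scale. Among the 16 genes with means of 10 to 100 it was 0.50 and 0.43 after double knockdown, 0.33 and −0.14 in control libraries, 0.00 and −0.26 after Rbbp4 knockdown, and 0.20 and −0.47 after Rbbp7 knockdown. Across all tested genes, a set not matched to these 16 in abundance, the library medians were between 0.00 and 0.01. The coefficient of variation over libraries had a median of 47.1% for those 16 genes and 41.5% for all 3940 genes of the same abundance.

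Genes of neighbouring stages and of other cell types were read in the same libraries. The list of 2-cell stage genes, 25 in the table, summed to 92.6 and 172 ppm in control libraries, 108 and 98.0 after Rbbp4 knockdown, 116 and 77.4 after Rbbp7 knockdown, and 181 and 140 after double knockdown. The genes of this list named here were picked after their values were seen. In control 2 Zscan4f was at 97.1 against 0 to 5.93 elsewhere, Usp17lc at 189 against 9.88 to 39.8, and Tdpoz3 at 107 against 3.93 to 21.6. Other genes of the list, such as Gm5662 at 486 and Gm2016 at 313, were highest in double knockdown 1. Of 20 listed markers of cumulus and granulosa cells, which surround the oocyte, 11 were in the table. Fshr, Lhcgr, Cyp19a1, Has2, Ptx3, Tnfaip6, Hsd3b1, Nr5a1 and Col1a2 were not. The 11 summed to 12.9 and 17.0 in control libraries, 16.5 and 24.7 after Rbbp4 knockdown, 20.3 and 11.6 after Rbbp7 knockdown, and 40.8 and 23.7 after double knockdown. Of these markers Cyp11a1 was listed at 0 in 6 libraries, Inha in 5 and Amh in 3. By contrast Amhr2 at 58.0 to 150.7, Inhbb at 26.1 to 66.5 and Star at 16.7 to 51.1 were above 0 in every library. Foxl2 was at 101 and 74.4 after double knockdown and at 12.0 to 33.8 elsewhere. Vcan was at 113 in double knockdown 1 and at 0 to 6.59 elsewhere, and without it the double-knockdown sums were 31.0 and 23.1. After double knockdown 5 of 5 tested markers of this list had positive changes against the control, where 49.9% of all tested genes did. At an unadjusted p below 0.05 stood 2 of the 5 (40%, against 17.3% of all tested genes). By limma 0 were called, against 1.15% of all tested genes. Whether any such cells were present was not tested. Nor was any part of them in the values of Nlrp4e, Tle6 and Uchl1, which were also highest after double knockdown. Sperm markers summed to at most 0.963.

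The knockdowns were compared with limma on log2(value + 1), with 1 mean per group over all 12565 genes of mean abundance at least 10, and p-values adjusted by the Benjamini-Hochberg method. A gene was called at an adjusted p below 0.05, and all comparisons against the control share its 2 libraries. Errors after a log2 change are standard errors, and errors after a group mean are SDs.

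The only maternal or oocyte gene called in any of the 6 comparisons was Uchl1, which rose after double knockdown. It was at 224 ± 92.7 (SD, n = 2) in control libraries and at 735 ± 24.5 (SD, n = 2) after double knockdown, a log2 change of 1.77 ± 0.30 (95% interval 1.10 to 2.45, limma adjusted p = 0.0332). That is 1 of 24 tested genes, where 144 of all 12565 genes, 1.15%, were called, 0.645% as higher. The call was lost in 8 of 18 other fits. The direction held in all of them, though many leave the group means as they are. Without control 1, the lower control library, the log2 change was 1.34 and the limma adjusted p 0.109; it was 0.134 without double knockdown 1 and 0.0954 without double knockdown 2. Without Rbbp4 knockdown 1 or Rbbp4 knockdown 2, which share the estimate of the spread, the limma adjusted p was 0.0762 and 0.0761.

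Uchl1 did not pass the threshold in the other comparisons. Its log2 change was −0.17 ± 0.30 after Rbbp4 knockdown (limma adjusted p = 0.973) and 0.93 ± 0.30 after Rbbp7 knockdown (limma adjusted p = 0.363). The double knockdown differed from the Rbbp4 knockdown by 1.94 ± 0.30 (limma adjusted p = 0.111) and the Rbbp7 knockdown by 0.84 ± 0.30 (limma adjusted p = 0.233). The interaction, the double knockdown's change less the sum of the 2 single changes, was 1.01 ± 0.42 (limma adjusted p = 0.760). A difference between the double and single knockdowns was thus not called for this gene.

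**Figure D3:**
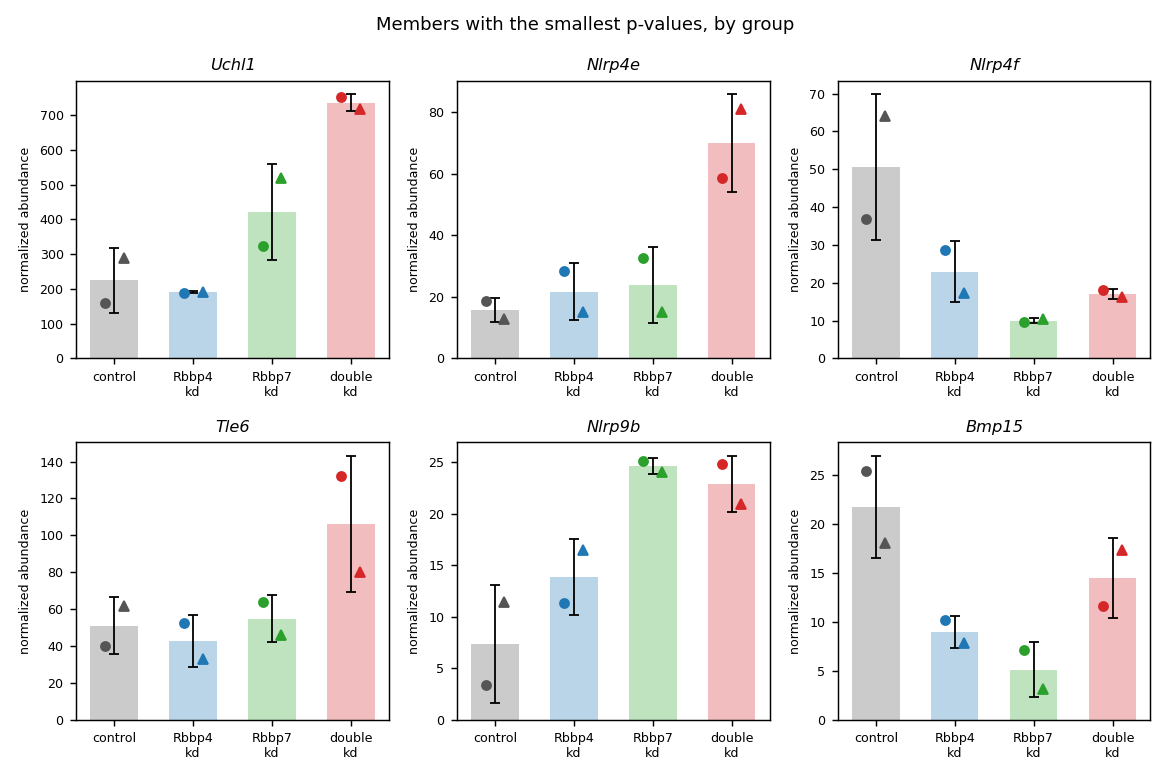
Normalized abundance of 6 maternal and oocyte genes with small p-values by siRNA group, on linear axes from 0. Bars are group means, error bars are SDs (n = 2), and circles and triangles are replicates 1 and 2. Uchl1 and Nlrp4e have both double-knockdown libraries above all others, while Nlrp4f and Bmp15 have both controls above all others.

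After double knockdown the next genes by p were Nlrp4e, at 70.0 ± 15.9 (SD, n = 2) against 15.7 ± 3.92 in control libraries, and Nlrp4f, at 17.0 ± 1.29 against 50.5 ± 19.3. Their log2 changes were 2.09 ± 0.56 (limma adjusted p = 0.108) and −1.46 ± 0.55 (limma adjusted p = 0.217). Nlrp9b differed by 1.70 ± 0.68 (limma adjusted p = 0.243) and Tle6 by 1.04 ± 0.42 (limma adjusted p = 0.254), so none of these 4 passed. At an unadjusted p below 0.05 stood 6 of the 24 genes (25.0%), against 17.3% of all genes. The libraries of the double knockdown and the control did not overlap for 11 of the 24 (45.8%), close to the 44.1% over all genes. Of these, 7 were higher, where 21.9% of all genes were, and 4 were lower, where 22.2% were.

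After Rbbp7 knockdown 0 of the 24 genes were called by limma, against 0.0239% of all genes, and 4 had an unadjusted p below 0.05 (16.7%, against 9.55%). Nlrp4f had the smallest p, at 9.97 ± 0.66 (SD, n = 2), a log2 change of −2.18 ± 0.55 (limma adjusted p = 0.252). Bmp15 differed by −1.95 ± 0.71 (limma adjusted p = 0.428), Nlrp9b by 1.80 ± 0.68 (limma adjusted p = 0.447) and Padi6 by 0.55 ± 0.34 (limma adjusted p = 0.641). The groups did not overlap for 9 of the 24 (37.5%), against 39.6% of all genes, with 4 higher (19.9% of all genes were) and 5 lower (19.7%).

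After Rbbp4 knockdown 0 of the 24 were called by limma, against 0.0239% of all genes, and 0 had an unadjusted p below 0.05, against 5.86%. The smallest p-values belonged to Nlrp4f, with a log2 change of −1.10 ± 0.55 (limma adjusted p = 0.853), and Bmp15, with −1.18 ± 0.71 (limma adjusted p = 0.884). Omt2b differed by −1.46 ± 0.96, Nlrp9b by 1.0 ± 0.68 and Cpeb1 by −0.66 ± 0.46, with limma adjusted p of 0.885 to 0.892. The groups did not overlap for 3 genes (12.5%), against 35.4% of all genes. All 3 were lower, where 17.4% of all genes were, and 0 were higher, where 18.0% were.

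**Figure D4:**
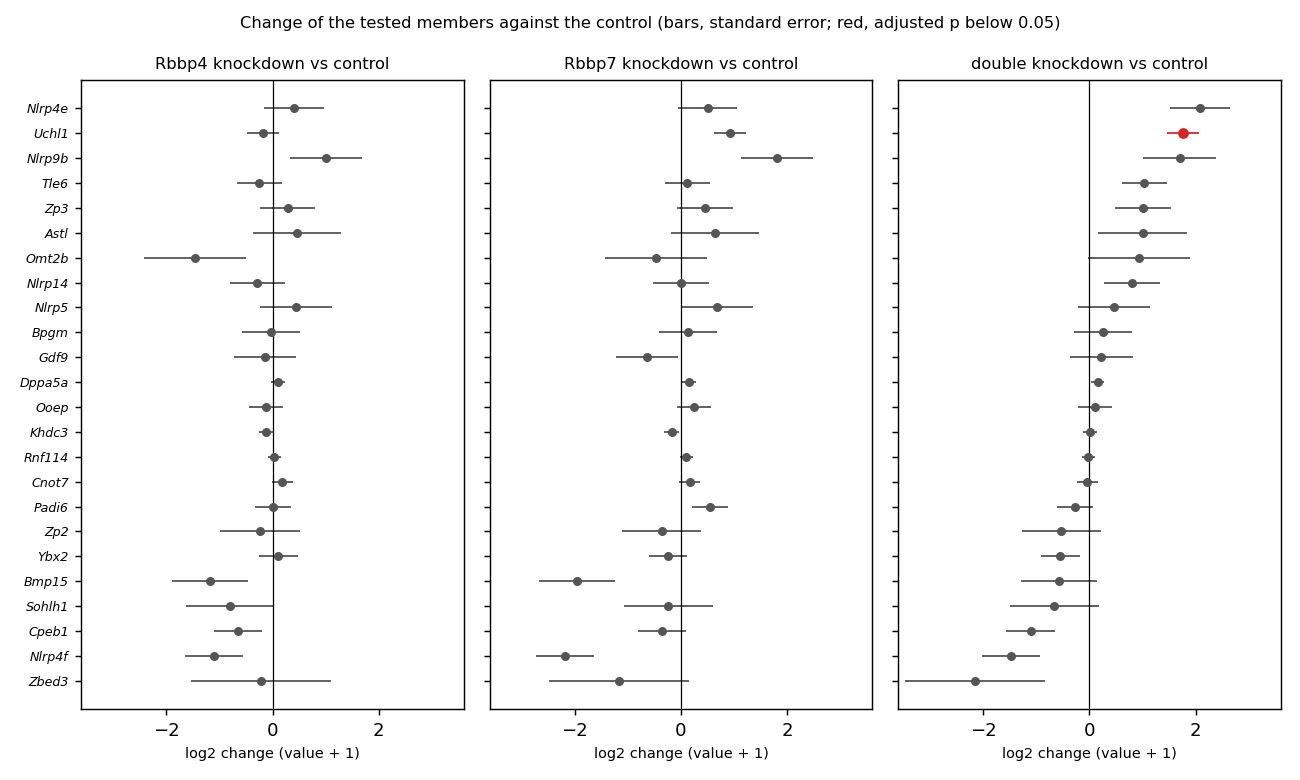
Log2 change of each of the 24 tested maternal and oocyte genes in the Rbbp4, Rbbp7 and double knockdown against the control, with standard errors from the limma fit as bars and log2(value + 1) as the scale. Uchl1 after double knockdown is the 1 gene called, at 1.77; genes with means below 100, such as Omt2b and Zbed3, have the widest bars.

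Between the double and single knockdowns 0 of the 24 genes were called by limma. In the comparison with the Rbbp4 knockdown 0.0159% of all genes were called, and 4 of the 24 had an unadjusted p below 0.05 (16.7%, against 9.57%). Libraries did not overlap there for 12 of the 24 (50%, against 42.4% of all genes). The double knockdown was the higher for 9 of the 24 (37.5%, against 20.9% of all genes) and the lower for 3 (12.5%, against 21.5%). In the comparison with the Rbbp7 knockdown 0.358% of all genes were called, and 3 of the 24 had an unadjusted p below 0.05 (12.5%, against 15.0%). Libraries did not overlap in this comparison for 10 of the 24 (41.7%, against 46.3% of all genes). The double knockdown was the higher for 8 (33.3%, against 23.1%) and the lower for 2 (8.33%, against 23.2%). The interaction gave 0 calls among the 24 by limma, where 0.00796% of all genes were called, and 3 at an unadjusted p below 0.05 (12.5%, against 6.49%). Its smallest p-values belonged to Bmp15, at 2.57 ± 1.01, Uchl1, and Nlrp4f, at 1.81 ± 0.77, all with a limma adjusted p of 0.760. Omt2b followed at 2.89 ± 1.36 (limma adjusted p = 0.775) and Tle6 at 1.17 ± 0.60 (limma adjusted p = 0.782).

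As a group the 24 genes had a median log2 change of −0.12 after Rbbp4 knockdown, 0.11 after Rbbp7 knockdown and 0.13 after double knockdown, where the medians of all tested genes were 0.00, 0.01 and 0.00. Of the 24, 10, 13 and 14 had positive changes. The median size of change without regard to sign was 0.24, 0.41 and 0.61, above the 0.18, 0.22 and 0.27 of all genes. That comparison is not matched for abundance, because 16 of the 24 had mean abundances of 10 to 100. All genes of that abundance had a median coefficient of variation of 41.5%, against 19.5% for all tested genes.

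The other genes of the same biology were given by fixed lists. Further oocyte-enriched genes numbered 47, of which 18 were tested, and 0 were called by limma in any comparison. At an unadjusted p below 0.05 stood 6 of the 18 (33.3%) after double knockdown against the control, where 17.3% of all genes stood. The next genes were chosen after their values were seen. After double knockdown Eif4e1b, an oocyte form of the cap-binding protein, differed by 2.18 ± 0.45 (limma adjusted p = 0.0572), and Oas1e by 2.23 ± 0.49 (limma adjusted p = 0.0704). Dppa3 (Stella), which protects the maternal genome from demethylation, was at 10548 and 10354 in control libraries and 7523 and 7936 after double knockdown, a log2 change of −0.44 ± 0.10 (limma adjusted p = 0.0860). Nlrp4c, which shares windows with Nlrp4e, differed by −1.12 ± 0.43 (limma adjusted p = 0.230). The list of clearance machinery held deadenylase and decay factors together with the poly(A)-binding proteins Pabpc1, Pabpc4 and Pabpn1l. Of its 26 genes 25 were tested, and 0 were called by limma in any comparison. After double knockdown against the control 7 of the 25 (28%) stood at an unadjusted p below 0.05, beside 17.3% of all genes. Of 17 tested 2-cell stage genes, 8 had positive and 9 negative changes after double knockdown, with a median log2 change of −0.03. The 1 called, Tdpoz2, rose by 0.96 ± 0.19 (limma adjusted p = 0.0496) on the log2 scale, where 0.645% of all genes were called higher. Of 20 morula and blastocyst markers, 16 had negative changes in this comparison and 2 were called lower, as against 0.501% of all genes. The trophectoderm keratin Krt18 changed by −1.08 ± 0.19 (limma adjusted p = 0.0358), and Atp1b1, of the sodium pump that drives blastocoel filling, by −1.13 ± 0.14 (limma adjusted p = 0.0144). Against the Rbbp7 knockdown the pluripotency factor Nanog changed by −1.12 ± 0.11 (limma adjusted p = 0.00916) after double knockdown, where 0.119% of all genes were called lower.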

How the data were processed

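Polyadenylated RNA of 8 libraries was captured on oligo(dT) beads, per the labels' protocols. The submitters' processing notes name Trimmomatic, HISAT2, featureCounts, DESeq2 and GRCm38. Versions, settings, annotation and the use of strand in counting were not given in the sources used here. Each value is a normalized signal for 1 Ensembl gene, scaled between libraries by the authors with DESeq2, as the deposited table is named. It is neither a raw count nor divided by gene length. Between 34.1% and 60.0% of the low values in a library fell within 0.05 of multiples of a shared step, too few to recover whole reads, so depth is unknown and no counting interval is given.

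Groups and replicate numbers came from the sample titles. Symbols, exon lengths and positions came from GENCODE M21 on GRCm38, which matched 18942 of 19058 identifiers and left 116 unmatched. Values were fitted as log2(value + 1), a scale that understates changes of low genes, with limma 3.58.1 in R 4.3.3, 1 mean per group and an intensity trend, with 5.18 prior and 4 residual degrees of freedom. All tests were two-sided and ran over 12565 genes with a mean of at least 10. The fit was tried on simulated data for the double knockdown against the control only. It recovered 38% of log2 changes of 1, 72% of 2, 96% of 3 and 98% of 4, over genes of all tested abundances. Smaller changes can thus go uncalled. Changes with errors and p-values are given for called genes and for the 5 smallest p-values among the maternal and oocyte genes in each comparison with the control and the interaction. Uchl1 is also given in every other comparison, and a few uncalled genes of other lists were added after their values were seen. The maternal and oocyte genes, and the other lists, were chosen with earlier results of these data known. Alternatives changed the pseudocount, the filter, the scaling, the variance model, the groups fitted, the replicate block and each library in turn. Libraries were checked for identical columns, and 0 pairs were found.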

Additional observations from a re-analysis of the deposited data

How the results depend on the processing

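Counts of genes called depended on the fit, and depth, which is not known, limits every gene near 0. Over all genes, the double knockdown against the control gave 144 calls, and 38 with array weights, 10 without the intensity trend, 2 when only those groups were fitted, and 18 to 94 when 1 library was left out. The 1 call among the maternal and oocyte genes in that comparison, Uchl1, became 0 with array weights, without the trend and with only those groups, and 0 to 1 when 1 library was left out. The Rbbp7 knockdown gave 3 calls over all genes, 7 with log2(value + 10), 6 with a mean of at least 50, and 1 to 38 when 1 library was left out. The Rbbp4 knockdown gave 3, and 2 to 35 when 1 library was left out. The double against the Rbbp4 knockdown gave 2, 4 with log2(value + 10), and 2 to 13 when 1 library was left out, and the call of 1 maternal or oocyte gene, Uchl1, when only those groups were fitted. The double against the Rbbp7 knockdown gave 45, 78 with a mean of at least 50, 5 without the trend, 1 with only those groups, and 5 to 43 when 1 library was left out. The interaction gave 1, 0 with log2(value + 10), and 1 to 21 when 1 library was left out. Beyond fewer genes or samples, the cause was not tested.

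Summed abundance without the 5 highest genes was 90.1 ppm in the control, 83.9 after Rbbp4 knockdown, 88.4 after Rbbp7 knockdown and 91.3 after double knockdown. Without mitochondrial genes in the total, the full sum was 2115 ppm in the control and 2110.5, 2074 and 2299 in the 3 knockdowns in that order. With those genes kept in the total, leaving out single libraries gave 1793 to 2219 in the control, 1991.5 to 2036 after Rbbp4 knockdown, 1937 to 2031 after Rbbp7 knockdown and 2116 to 2257 after double knockdown. The median log2 change of the 24 tested genes changed sign with a library left out after Rbbp4 knockdown (−0.19 to 0.02), after Rbbp7 knockdown (−0.07 to 0.11) and in the interaction (−0.08 to 0.44), and in the interaction with quantile normalization (−0.01). For the 5 maternal and oocyte genes with the smallest p in each comparison with the control and in the interaction, the log2 change kept its direction in all 342 refits. Many of these refits leave a difference of group means unchanged by construction, such as those with array weights, a replicate block or no intensity trend. The genes were also picked by p in the same data, so the kept direction is no separate support. The other log2 changes given were not followed across refits.

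Samples with the same replicate number did not deviate together, with correlations of −0.02 to 0.05 between groups, so the numbers are not taken as pairing. With a replicate block Uchl1 after double knockdown had a log2 change of 1.77 (limma adjusted p = 0.0285), and 113 genes were called in all.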
